A study of Mus musculus with 12 samples.

Results

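Among the stromal cells of mouse white fat, those that carry transcripts of Fmo2 or Myoc were selected on raw UMI counts (unique molecular identifiers, each standing for 1 captured transcript). A cell qualified with at least 1 UMI of Pdgfra, the receptor that marks fibroblasts and fat-cell progenitors, at least 2 UMIs of Fmo2 and Myoc together, at most 1 of Pi16 and Dpp4 together, and none of the leukocyte gene Ptprc or the endothelial gene Pecam1. The rule found 3673 cells among 126095 cells that passed the limits on UMIs, genes and mitochondrial share, and among 27113 cells with Pdgfra that were free of Ptprc and Pecam1. Of the 3673 cells, 2264 came from epididymal fat (eWAT) and 1409 from inguinal fat (iWAT). The cells belonged to the stromal vascular fraction, which is what remains of digested fat after the adipocytes float off, and were profiled by droplet single-cell RNA-seq in 12 libraries. Each depot had 2 libraries of each of 3 groups of male mice aged 12 weeks. WT-Veh mice were C57BL/6J given methylcellulose vehicle, ob/ob-Veh mice were homozygous for the Lep ob mutation and given the same vehicle, and ob/ob-Rosi mice carried the same 2 ob alleles and received rosiglitazone, an agonist of the fat-cell receptor Pparg, at 30 mg/kg by gavage each morning and evening for 3 days. Every ob/ob mouse lacked leptin from birth, none of the 12 libraries came from lean mice given the drug, and each depot was sampled as small pieces from several places.

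Fibroblasts that carry Pdgfra hold the adult reserve of fat-cell progenitors. In both depots they are usually divided into Pi16 and Dpp4 cells of the connective tissue around the fat lobules, which stand early in the lineage, committed preadipocytes that start to express Pparg, Icam1 and Fabp4, and a further type with F3 (Cd142) and Clec11a that has been described as holding back fat-cell formation. Fmo2 encodes a flavin-containing monooxygenase that oxidises drugs and other small molecules, and Myoc encodes myocilin, a secreted glycoprotein best known from the drainage tissue of the eye. Mgp, an inhibitor of calcification, Cilp, an antagonist of TGF-beta in the matrix, Mfap4, a microfibril protein, and Fxyd6, a regulator of the sodium pump, are the other genes that go with the name of these cells.

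The data went against the Myoc portion of that name. A Fmo2 UMI was present in 3640 of the 3673 cells and 3612 had at least 2, whereas only 113 cells had a Myoc UMI. The share of the chosen cells with a Myoc UMI ranged from 0% to 13.4% over the 12 libraries. Among Pi16/Dpp4 cells of any Fmo2 and Myoc level, which the rule keeps apart, the share was 0.69% to 9.96% in eWAT and 10.1% to 28.2% in iWAT, and among Ptprc cells it was at most 2.31%. The chosen cells are therefore called Fmo2 cells below. Their median was 3 Fmo2 UMIs and the highest count was 39. At the edge of the rule, 1164 cells had exactly 2 UMIs of Fmo2 and Myoc, and 2614 other Pdgfra cells were left out with 1. In the first eWAT library labelled WT-Veh the cells at 2 UMIs held 10145 CPM (UMIs scaled to a common total, the share of a gene among all UMIs summed over the cells) of Mgp, those at 1 held 9393 CPM and those at 0 held 5867 CPM. Mgp was higher at 2 UMIs than at 1 in 5 of 6 eWAT libraries (ratio 0.898 to 1.79) and in 3 of 6 iWAT libraries (ratio 0.367 to 3.15), and higher at 1 than at 0 in 6 of 6 of each depot. The 2 genes lie on chromosome 1 of mm10, Myoc at chr1:162639155-162649693 on the plus strand and Fmo2 at chr1:162874317-162898726 on the minus strand. Pdgfra spans chr5:75152292-75198215, Mgp chr6:136872435-136875823, Cilp chr9:65265180-65280605, Mfap4 chr11:61485431-61488900 and Fxyd6 chr9:45370185-45396159.

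Depth and the check of the genotype bear on all that follows. The libraries held 20132553 to 92475986 UMIs, the Fmo2 cells had medians of 2166 to 7089 UMIs each, and the first iWAT library labelled WT-Veh stood apart with a median of 1132 UMIs over all its cells and only 42 Fmo2 cells. Pairs of libraries shared 7 to 99 cell barcodes, at most 1.05% of either, and 1 barcode of a Fmo2 cell occurred in 2 libraries. The ob allele is a premature stop in Lep that leaves the transcript in place, and Lep mRNA is known to be raised in the fat of ob/ob mice. Over all cells of a library, Lep UMIs per 100 Adipoq UMIs, a ratio within the free adipocyte RNA, were 28.0 and 42.5 in the eWAT libraries labelled WT-Veh, 3.95 and 16.2 in the ob/ob-Veh-labelled and 240.0 and 390.1 in the ob/ob-Rosi-labelled ones. In iWAT the same ratio was 20.1 and 31.6, then 36.4 and 15.1, then 164 and 141. The libraries labelled ob/ob-Veh thus had less Lep per Adipoq than those labelled WT-Veh in eWAT, which goes against the labels. In iWAT the groups overlapped, and the ob/ob-Veh ratios rest on 4 Lep and 11 Adipoq UMIs in the first library and on 8 and 53 in the second. Trem2, a gene of the lipid-laden macrophages of obese fat, was at 1490.4 and 1306 CPM in the Ptprc cells of the eWAT libraries labelled WT-Veh, at 47.3 and 74.8 CPM in the ob/ob-Veh-labelled and at 1389 and 1651 CPM in the ob/ob-Rosi-labelled ones. In iWAT, Trem2 in Ptprc cells was likewise lowest in the libraries labelled ob/ob-Veh, at 66.6 and 25.1 CPM against 222 to 541 CPM in the other 4. In eWAT, Trem2 was thus lower in the ob/ob-Veh-labelled than in the WT-Veh-labelled libraries, as was Lep per Adipoq. By flow cytometry the paper counted fewer inflammatory and lipid-associated macrophages after rosiglitazone in both depots. Its histology showed fewer crown-like structures in eWAT of ob/ob mice given the drug. Here Trem2 in Ptprc cells was higher under ob/ob-Rosi than under ob/ob-Veh in both depots, a level of RNA and not a count of cells. The preparation discarded the floating layer. The paper proposes that lipid-laden macrophages floated off with the adipocytes, and it imaged macrophages in that layer from ob/ob-Veh mice. The part of such a loss in these Trem2 values was not tested, so Trem2 alone does not decide whether the labels are right. Every direction below is given between libraries as labelled, and rests on those labels.

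Taken from all UMIs, the share of Fmo2 cells among Pdgfra cells overlapped between the 3 groups of eWAT and was lowest in both ob/ob-Veh-labelled libraries of iWAT. In eWAT it was 10.2% (95% exact binomial interval 9.03 to 11.5) and 36.7% in the WT-Veh-labelled libraries, 14.0% and 19.9% in the ob/ob-Veh-labelled and 12.7% and 21.9% in the ob/ob-Rosi-labelled ones. In iWAT it was 7.76% and 11.5%, then 2.75% and 3.26%, then 11.5% and 17.4%. Among all cells that passed the limits, the first iWAT library labelled WT-Veh was lowest instead. Those iWAT shares were 0.246% and 2.58%, then 0.930% and 1.25%, then 2.31% and 4.19%. Pi16/Dpp4 cells, here of any Fmo2 and Myoc level, count among the Pdgfra cells, though the rule bars them from the Fmo2 cells. In iWAT they were 117 of 541 and 1538 of 2201, then 1990 of 2433 and 1935 of 2758, then 765 of 1935 and 2308 of 4223. Their part in the shares was not tested. Within eWAT the second library labelled WT-Veh stood above the other 5. A share with a UMI follows depth, so cells with at least 2000 UMIs were also thinned to 2000, and shallower cells were left out. Pdgfra cells then numbered 770 in place of 2347 in the first eWAT library labelled WT-Veh, and 212 in place of 541 in the first of iWAT. In eWAT the thinned shares were 10.8% and 29.3% under WT-Veh, 7.76% and 10.5% under ob/ob-Veh and 10.6% and 11.5% under ob/ob-Rosi. Both eWAT libraries labelled ob/ob-Veh were thus narrowly lowest. In iWAT the thinned shares were 9.91% and 8.53% under WT-Veh, 3.09% and 3.26% under ob/ob-Veh and 7.31% and 14.1% under ob/ob-Rosi. The same 2 iWAT libraries were lowest. Only 0.22% to 2.01% of Ptprc cells, which should lack Fmo2, had at least 2 UMIs of Fmo2 and Myoc. With 2 libraries against 2 no exact permutation test can give a p below 0.33, so the shares stand as a description, and the intervals cover counting error only. As in any tissue sample, fewer Fmo2 cells and less Fmo2 RNA per cell cannot be told apart by this rule: Fmo2 summed over all Pdgfra cells was 288, 669, 205, 326, 280.4 and 235 CPM in the 6 eWAT libraries, taken in the order of the groups above, and 225, 229, 59.8, 78.8, 150.2 and 319 CPM in the 6 iWAT libraries.

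**Figure D1:**
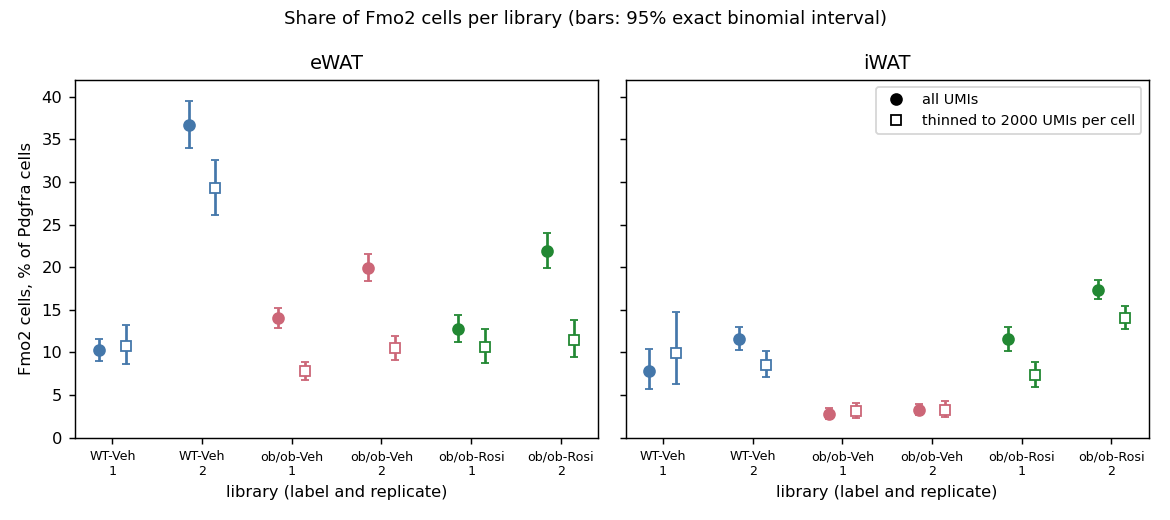
Share of Fmo2 cells among Pdgfra cells (%, vertical axis) in each of the 12 libraries by depot and labelled group, from all UMIs and from cells thinned to 2000 UMIs, with bars for the 95% exact binomial interval. The 2 iWAT libraries labelled ob/ob-Veh lie at 2.75% and 3.26%, below the other iWAT libraries, and the second eWAT library labelled WT-Veh stands at 36.7%.

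The other Pdgfra cells of the same libraries had at most 1 UMI of Fmo2 and Myoc and at most 1 of Pi16 and Dpp4 (11371 cells). Set beside them, the Fmo2 cells of eWAT had 7 of 11 measured small leucine-rich proteoglycans higher in all 6 libraries. The same held for 8 of 20 elastic fibre and microfibril genes, and 0 genes of either list were lower in all 6. These contrasts describe the cells that the rule made, and no test goes with them. In eWAT, Mgp averaged 8459 against 4839 CPM (log2 ratio 0.68 to 1.31 over the 6 libraries), Cilp 409 against 205 CPM, Mfap4 61.2 against 24.4 CPM and Fxyd6 58.1 against 22.2 CPM, and all 4 were higher in the Fmo2 cells in 6 of 6 libraries. Next to these marker genes stood C7, a terminal complement component, at 166 against 82.6 CPM, Itgbl1, a secreted integrin-like protein, at 79.2 against 33.6 CPM, Vegfc, the growth factor of lymphatic vessels, at 30.4 against 14.6 CPM, and Ccbe1, which helps to activate Vegfc, at 68.1 against 34.9 CPM. Of 11119 genes, 705 were higher and 661 lower in every eWAT library. The xenobiotic and retinoid enzymes, the class to which Fmo2 itself belongs, had 13 of 22 measured genes higher in all 6 libraries, among them Fmo1 at 164 against 123 CPM and Adh1, an alcohol dehydrogenase, at 285 against 199 CPM. The genes lower in the Fmo2 cells were led by macrophage genes, with 7 of the 10 macrophage markers lower in every library, such as Mrc1, the mannose receptor, at 38.8 against 106 CPM. The rule bars Ptprc in both classes, and the part of macrophage RNA in this difference was not tested. In every library of both depots Fmo2 cells were deeper, with a lower mitochondrial share, than other Pdgfra cells without a Fmo2 or Myoc UMI. Their median UMIs were 7089 against 4538 in the first eWAT library labelled ob/ob-Veh and 3884.5 against 1254 in the first iWAT library labelled WT-Veh. The smallest gap was 5140 against 5041, in the second iWAT library labelled WT-Veh. The part of depth in these contrasts was not tested.

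The contrast with the Pi16/Dpp4 cells of eWAT separated the markers. This class (9576 cells over both depots) held at most 1 UMI of Fmo2 and Myoc, and 2493 cells with both pairs of markers entered neither side. Mgp was again higher, at 8459 against 4614 CPM, and so was Fxyd6 at 58.1 against 24.97 CPM, but Cilp at 409 against 459 CPM and Mfap4 at 61.2 against 70.6 CPM were higher in only 2 of 6 libraries each, so neither sets the Fmo2 cells apart from Pi16/Dpp4 cells in this depot. Fmo2 itself was common in cells with Pi16 and Dpp4 once those with both pairs were counted in, as 18.1% to 54.2% of them in eWAT and 2.64% to 9.84% in iWAT had at least 2 Fmo2 UMIs. Agt, the angiotensin precursor, showed a wide gap at 122 against 6.98 CPM (log2 ratio 1.60 to 5.49), as did Cpxm2, a secreted carboxypeptidase-like protein, at 41.0 against 5.84 CPM. The guidance factor Sema3c, a progenitor gene, went the other way at 39.5 against 358 CPM. In this contrast 950 of 9747 genes were higher and 716 lower in every library, and 62 of 80 ribosomal protein genes were among the lower ones, with a median log2 ratio of -0.20.

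In iWAT the Fmo2 cells carried genes of the F3 and Clec11a type. Of the 8 genes that mark that type, 7 were higher than in the other Pdgfra cells in all 6 libraries and 7 were higher than in the Pi16/Dpp4 cells. Of the name markers, Mgp at 1227 against 395 CPM, Cilp at 109 against 33.0 CPM and Fxyd6 at 41.1 against 15.8 CPM were higher than in the other Pdgfra cells in 6 of 6 libraries, and Mfap4, at 15.8 against 7.35 CPM, in 4 of 6. F3, tissue factor, stood at 294 against 66.6 CPM (log2 ratio 0.93 to 3.42), and Clec11a, a secreted growth factor for bone, at 64.9 against 8.82 CPM (log2 ratio 0.89 to 3.65). Inmt, a methyltransferase, was at 1412 against 431 CPM and Gdf10, a TGF-beta family ligand, at 1036 against 315 CPM. In eWAT the same list had 5 of 8 genes higher than in other Pdgfra cells, and F3 itself, at 153 against 151 CPM, was higher in 3 of 6 libraries. The iWAT cells added the BMP antagonist Chrdl1 at 343 against 45.0 CPM, the Wnt modulator Sfrp4 at 189 against 39.2 CPM and the neuropeptide-processing enzyme Cpe at 148 against 32.2 CPM. Of 10 preadipocyte genes 3 were lower and 0 higher in all 6 libraries in each depot, with a list median log2 ratio of -0.47 in iWAT and -0.31 in eWAT. Cd36, a fatty acid transporter of that list, averaged 292 against 769.9 CPM in iWAT, lower in 6 of 6 libraries, and 164 against 294 CPM in eWAT, where 1 library was higher. All 10 macrophage markers were lower in every iWAT library. Over all genes, 632 of 8957 were higher and 629 lower in all 6 libraries against other Pdgfra cells, and 1211 of 9908 were higher and 1168 lower against Pi16/Dpp4 cells.

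**Figure D2:**
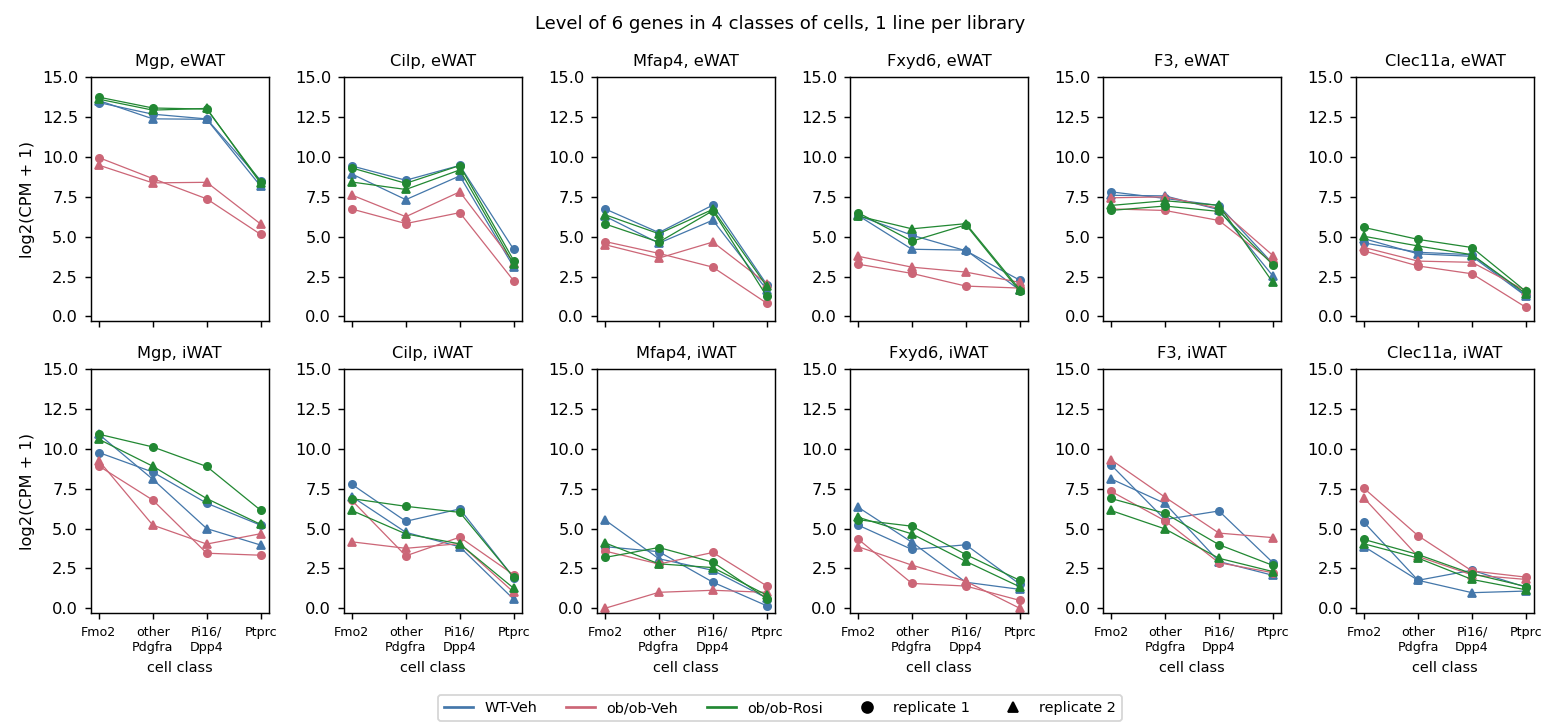
Level of Mgp, Cilp, Mfap4, Fxyd6, F3 and Clec11a as log2(CPM + 1) in Fmo2 cells, other Pdgfra cells, Pi16/Dpp4 cells and Ptprc cells of eWAT and iWAT, with 1 line for each library. In eWAT the lines of Cilp and Mfap4 stay as high in Pi16/Dpp4 cells as in Fmo2 cells, while in iWAT F3 and Clec11a peak in Fmo2 cells.

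In eWAT, Fmo2 cells from libraries labelled ob/ob-Veh differed widely from those labelled WT-Veh. Summed per library and tested with edgeR (calls needed an adjusted p no higher than 0.05 over all genes together with at least a 1.1-fold change), 584 of 11037 genes were called, 5.29%. Of these 256 were higher (2.32%) and 328 lower (2.97%) in the libraries labelled ob/ob-Veh. Before any threshold, 52.7% of all genes had groups that did not overlap. Each gene below had 2 libraries per group, and all 6 eWAT libraries entered the same fit. The count fell to 298 and 183 without the first or second library labelled WT-Veh and to 161 and 181 without the first or second labelled ob/ob-Veh, and 12 of the 16 genes with the largest changes stayed called without each library in turn. With the replicate number as a block, 1035 genes were called, and they held all 584.

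The marker genes of the cells were lower. Mgp was at 10852 and 11860.3 CPM in the WT-Veh-labelled libraries, 994 and 715 CPM in the ob/ob-Veh-labelled and 13746 and 12585 CPM in the ob/ob-Rosi-labelled ones. Both libraries labelled ob/ob-Veh lay far below the other 4 (log2 fold change -3.75 ± 0.28 (SE), edgeR adjusted p = 9.19e-05). Fxyd6 was at 79.3 and 79.8 CPM in the WT-Veh-labelled libraries, 8.71 and 12.7 CPM in the ob/ob-Veh-labelled and 90.1 and 77.7 CPM in the ob/ob-Rosi-labelled ones, again with no overlap (log2 fold change -2.93 ± 0.29 (SE), edgeR adjusted p = 3.71e-04). Cilp was at 691 and 486 CPM in the WT-Veh-labelled libraries, 105 and 194 CPM in the ob/ob-Veh-labelled and 633 and 343 CPM in the ob/ob-Rosi-labelled ones and Mfap4 at 106 and 77.0 CPM in the WT-Veh-labelled libraries, 24.97 and 21.7 CPM in the ob/ob-Veh-labelled and 54.8 and 82.3 CPM in the ob/ob-Rosi-labelled ones. The 4 markers measured and not used by the rule were thus all called lower, with a median log2 fold change of -2.48, compared with 0.00 over all genes tested. The other Pdgfra cells moved with them, since Mgp was at 6556 and 5352 CPM in the WT-Veh-labelled libraries, 399 and 331 CPM in the ob/ob-Veh-labelled and 8578 and 7819.8 CPM in the ob/ob-Rosi-labelled ones there, and the difference between the effects in both cell classes was not called for Mgp (log2 fold change 0.35 ± 0.13 (SE), edgeR adjusted p = 0.326) or for the other 3 markers.

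Genes that respond to TGF-beta were lower too. In that list 8 of 18 were called lower and 0 higher, with a median of -1.31. Tagln, an actin-binding protein of smooth muscle, was at 137 and 112 CPM in the WT-Veh-labelled libraries, 1.45 and 2.89 CPM in the ob/ob-Veh-labelled and 50.2 and 287 CPM in the ob/ob-Rosi-labelled ones. The libraries labelled ob/ob-Veh held almost none of it (log2 fold change -5.83 ± 0.76 (SE), edgeR adjusted p = 0.00145). Col8a1, a network collagen of vessel walls and injured tissue, was at 135 and 114 CPM in the WT-Veh-labelled libraries, 2.32 and 3.18 CPM in the ob/ob-Veh-labelled and 79.9 and 179.6 CPM in the ob/ob-Rosi-labelled ones, with all 4 remaining libraries far above (log2 fold change -5.50 ± 0.47 (SE), edgeR adjusted p = 2.44e-04). Timp1, an inhibitor of matrix proteases, was at 546 and 443 CPM in the WT-Veh-labelled libraries, 25.3 and 29.2 CPM in the ob/ob-Veh-labelled and 379 and 724 CPM in the ob/ob-Rosi-labelled ones and likewise did not overlap (log2 fold change -4.22 ± 0.36 (SE), edgeR adjusted p = 2.44e-04). Postn, a matrix protein of remodelling tissue, was at 712 and 1288 CPM in the WT-Veh-labelled libraries, 141 and 178 CPM in the ob/ob-Veh-labelled and 614 and 926 CPM in the ob/ob-Rosi-labelled ones (log2 fold change -2.69 ± 0.33 (SE), edgeR adjusted p = 0.00103). Tenascin C (Tnc), a matrix protein of wounds, was at 23.4 and 35.5 CPM in the WT-Veh-labelled libraries, 0 and 0.577 CPM in the ob/ob-Veh-labelled and 29.7 and 41.6 CPM in the ob/ob-Rosi-labelled ones, which was 102 against 2 UMIs, a ratio of 115 with a 95% counting interval of 31.1 to 964. Of the small leucine-rich proteoglycans, which bind collagen fibrils, 3 of 11 were lower and 0 higher, among them Bgn (log2 fold change -2.01 ± 0.31 (SE), edgeR adjusted p = 0.00347). Elastic fibre genes were divided, with 7 of 20 lower, such as Mfap5 (log2 fold change -1.21 ± 0.25 (SE), edgeR adjusted p = 0.0179) and Emilin1 (log2 fold change -1.23 ± 0.25 (SE), edgeR adjusted p = 0.0155), and 2 higher, such as Efemp1 (log2 fold change 1.17 ± 0.25 (SE), edgeR adjusted p = 0.0195). Collagens were divided too, with 3 of 22 lower and 4 higher, and the 4 higher were all basement membrane chains, Col4a3 to Col4a6, while Col1a1, Col8a1 and Col4a2, itself a basement membrane chain, were the 3 lower.

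The genes with the largest change upward in the libraries labelled ob/ob-Veh included enzymes and an ion channel protein. Sult1e1, the estrogen sulfotransferase, was at 73.9 and 31.5 CPM in the WT-Veh-labelled libraries, 2303 and 1784 CPM in the ob/ob-Veh-labelled and 106 and 24.7 CPM in the ob/ob-Rosi-labelled ones. Both libraries labelled ob/ob-Veh stood far above the other 4 (log2 fold change 5.37 ± 0.64 (SE), edgeR adjusted p = 8.31e-04). Clic6, a chloride channel protein, was at 0 and 0 CPM in the WT-Veh-labelled libraries, 38.6 and 55.7 CPM in the ob/ob-Veh-labelled and 0 and 0 CPM in the ob/ob-Rosi-labelled ones and was at least 48.1-fold higher, a bound that sets the group at 0 to a floor of 3 UMIs over its summed cells, as do all such bounds below. Such a bound takes the count of the higher group as exact and does not cover the spread between libraries. Pde11a, a phosphodiesterase for cAMP and cGMP, was at 3.61 and 0.798 CPM in the WT-Veh-labelled libraries, 35.1 and 50.8 CPM in the ob/ob-Veh-labelled and 1.14 and 0.914 CPM in the ob/ob-Rosi-labelled ones (log2 fold change 4.90 ± 0.54 (SE), edgeR adjusted p = 6.52e-04). Nt5e (CD73), the surface enzyme that makes adenosine, was at 0 and 0.399 CPM in the WT-Veh-labelled libraries, 39.5 and 39.3 CPM in the ob/ob-Veh-labelled and 3.42 and 0.914 CPM in the ob/ob-Rosi-labelled ones, which was 272 against 1 UMIs, a ratio of 120.5 with a 95% counting interval of 21.4 to 4776. Igf1, the insulin-like growth factor, was at 267 and 196 CPM in the WT-Veh-labelled libraries, 1659 and 1663 CPM in the ob/ob-Veh-labelled and 278 and 128 CPM in the ob/ob-Rosi-labelled ones. It was highest in both libraries labelled ob/ob-Veh (log2 fold change 2.82 ± 0.36 (SE), edgeR adjusted p = 0.00133), and 2 of the 11 genes of the IGF axis were called, both higher. Inmt (log2 fold change 1.83 ± 0.45 (SE), edgeR adjusted p = 0.0370), Gdf10 (log2 fold change 1.82 ± 0.34 (SE), edgeR adjusted p = 0.0112) and the Wnt agonist Rspo3 (log2 fold change 3.49 ± 0.51 (SE), edgeR adjusted p = 0.00278) were called higher as well, while the Wnt list as a whole had 2 of 15 higher and 4 lower.

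Inflammatory and stress-response genes were also higher. Ptgs2, cyclooxygenase-2, was at 23.4 and 6.39 CPM in the WT-Veh-labelled libraries, 285 and 167 CPM in the ob/ob-Veh-labelled and 14.8 and 2.74 CPM in the ob/ob-Rosi-labelled ones. Il6, an inflammatory cytokine, was at 19.8 and 12.8 CPM in the WT-Veh-labelled libraries, 219.8 and 139 CPM in the ob/ob-Veh-labelled and 14.8 and 3.66 CPM in the ob/ob-Rosi-labelled ones. Neither gene overlapped between the libraries labelled ob/ob-Veh and the rest (Ptgs2 log2 fold change 4.33 ± 0.65 (SE), edgeR adjusted p = 0.00302, and Il6 log2 fold change 3.58 ± 0.49 (SE), edgeR adjusted p = 0.00187). In the TNF and NF-kB list 8 of 22 genes were higher and 1 lower, the exception being the acute-phase gene Saa3, and in the list of genes known to respond to tissue dissociation 7 of 24 were higher and 0 lower, among them Hspa1a, a heat-shock protein (log2 fold change 1.27 ± 0.29 (SE), edgeR adjusted p = 0.0273). How much of these gene groups arose while the tissue was digested was not tested. Of adipogenic genes and Pparg targets 1 of 28 was higher and 5 were lower, with Cd36 at 290.3 and 180.0 CPM in the WT-Veh-labelled libraries, 38.6 and 58.0 CPM in the ob/ob-Veh-labelled and 292 and 122 CPM in the ob/ob-Rosi-labelled ones (log2 fold change -2.32 ± 0.41 (SE), edgeR adjusted p = 0.00845). Fabp4, Icam1 and Pparg were not called in eWAT (Fabp4 log2 fold change -0.85 ± 0.36 (SE), edgeR adjusted p = 0.235).

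Genes best known from other cell types moved with these groups. The macrophage list had 9 of 10 genes called lower in the libraries labelled ob/ob-Veh, with C1qa, a complement component, at 453 and 179.6 CPM in the WT-Veh-labelled libraries, 43.0 and 63.8 CPM in the ob/ob-Veh-labelled and 301 and 254 CPM in the ob/ob-Rosi-labelled ones. The summed level of the 10 macrophage markers in Fmo2 cells was 3911 and 2060.4 CPM in the libraries labelled WT-Veh, 326 and 591 CPM in the ob/ob-Veh-labelled and 3164 and 2508 CPM in the ob/ob-Rosi-labelled ones, with all 10 detected. Trem2, which is not known as a fibroblast gene, was at 175 and 167 CPM in the WT-Veh-labelled libraries, 2.90 and 4.91 CPM in the ob/ob-Veh-labelled and 205 and 149.9 CPM in the ob/ob-Rosi-labelled ones in the Fmo2 cells. Of the 328 genes called lower, 168 had a higher mean in Ptprc cells than in Fmo2 cells, against 30 of the 256 called higher. For no comparison was the same share taken over all genes tested. The 6 mesothelial markers summed to 129.8 and 52.3 CPM, 217 and 237 CPM, and 67.3 and 64.0 CPM in the same order, with Wt1 called higher (log2 fold change 1.65 ± 0.32 (SE), edgeR adjusted p = 0.0134). Wt1, itself 1 of the 6, was at 160.5 CPM in the pooled ob/ob-Veh-labelled libraries and made up most of their sum. The sum therefore does not show whether the other mesothelial markers moved. What part the RNA of other cells has in the calls was not tested.

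**Figure D3:**
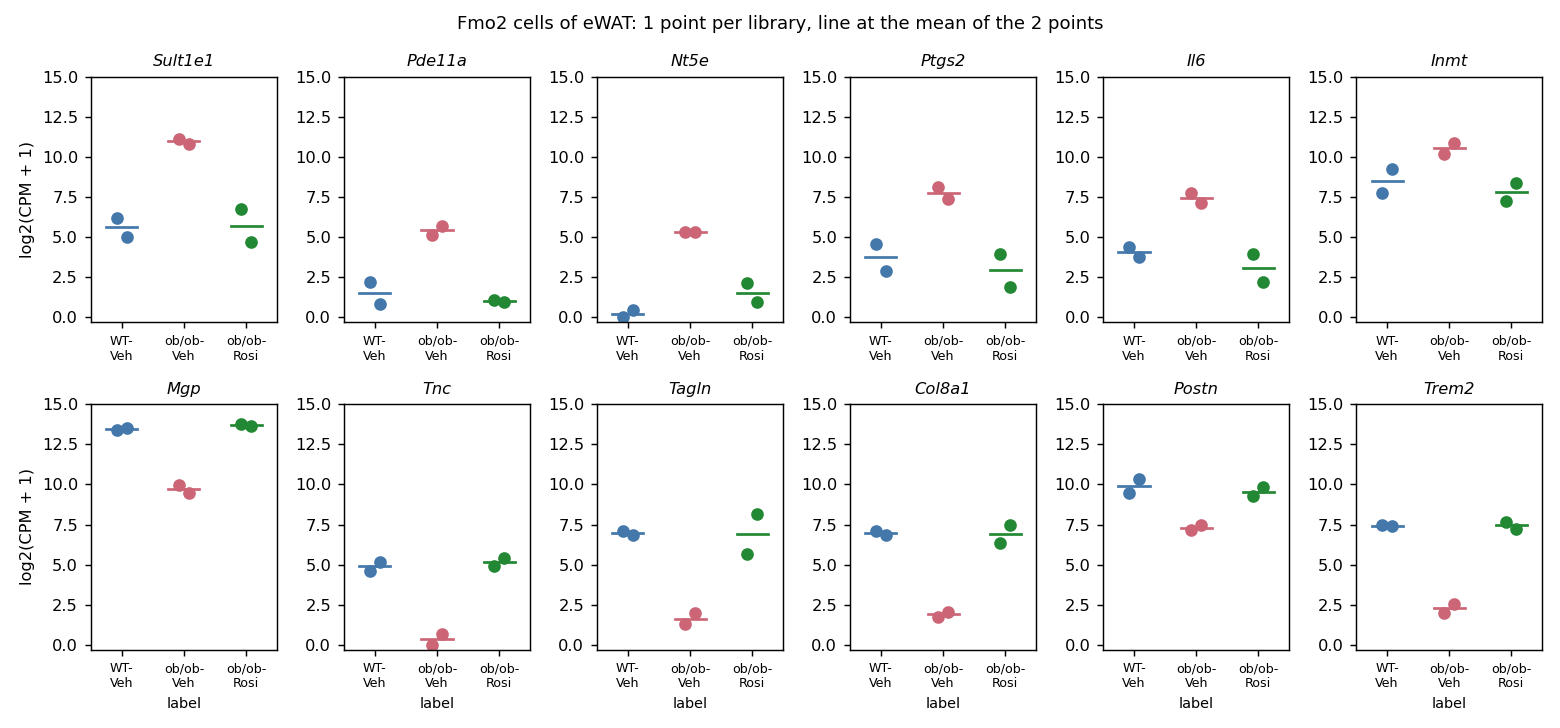
Level of 12 genes in the Fmo2 cells of eWAT as log2(CPM + 1) by labelled group, with 1 point for each library and a line at the mean of the 2 points. Sult1e1, Pde11a, Nt5e, Ptgs2, Il6 and Inmt are highest and Mgp, Tnc, Tagln, Col8a1, Postn and Trem2 lowest in both libraries labelled ob/ob-Veh.

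Between the eWAT libraries labelled ob/ob-Rosi and ob/ob-Veh, 681 of 11037 genes were called (6.17%), 382 higher (3.46%) and 299 lower (2.71%) in the ob/ob-Rosi-labelled libraries, and 49.7% of all genes had groups that did not overlap. Without the first or second library labelled ob/ob-Veh 206 and 281 genes were called, and without the first or second labelled ob/ob-Rosi 1431 and 225. With the replicate block 1343 genes were called. This comparison uses the same ob/ob-Veh libraries as the one above, so both move together when those libraries are high or low. Of the genes called in both, 185 were higher against WT-Veh and lower in ob/ob-Rosi, 255 were the reverse, and 0 had the same direction in both. Mgp, with the values above, was higher in the libraries labelled ob/ob-Rosi (log2 fold change 3.97 ± 0.28 (SE), edgeR adjusted p = 5.44e-05), and all 4 markers were called. The TGF-beta list had 7 of 18 genes higher and 0 lower, with Col8a1 (log2 fold change 5.61 ± 0.46 (SE), edgeR adjusted p = 1.28e-04), Timp1 (log2 fold change 4.39 ± 0.37 (SE), edgeR adjusted p = 1.28e-04) and Tagln (log2 fold change 6.34 ± 0.76 (SE), edgeR adjusted p = 8.33e-04). Cyp4b1, a cytochrome P450, was at 23.4 and 58.7 CPM in the WT-Veh-labelled libraries, 0 and 2.02 CPM in the ob/ob-Veh-labelled and 33.1 and 96.9 CPM in the ob/ob-Rosi-labelled ones (log2 fold change 6.05 ± 0.76 (SE), edgeR adjusted p = 9.72e-04). Going down were Sult1e1 (log2 fold change -5.01 ± 0.62 (SE), edgeR adjusted p = 8.58e-04), Ptgs2 (log2 fold change -5.00 ± 0.66 (SE), edgeR adjusted p = 0.00131), Il6 (log2 fold change -4.54 ± 0.52 (SE), edgeR adjusted p = 7.25e-04) and Igf1 (log2 fold change -3.01 ± 0.36 (SE), edgeR adjusted p = 8.41e-04). Clic6, again at 0 in both libraries labelled ob/ob-Rosi, was at least 48.2-fold lower. In the dissociation list 10 of 24 genes were lower and 0 higher, and in the TNF and NF-kB list 8 of 22 were lower and 1 higher.

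Targets of the drug's own receptor gave a mixed result in eWAT. Of 28 adipogenic genes and Pparg targets 3 were higher (Fabp5, Cd36 and Plin2) and 2 lower (Me1 and Ebf2) in the libraries labelled ob/ob-Rosi, with a median of 0.40. Cd36 passed with log2 fold change 2.13 ± 0.41 (SE), edgeR adjusted p = 0.00992, while Fabp4, the classical target, hardly differed (log2 fold change 0.03 ± 0.36 (SE), edgeR adjusted p = 0.980). Macrophage markers rose with them, 9 of 10 called higher. A higher mean in Ptprc cells was found for 198 of the 382 genes called higher, against 43 of the 299 called lower. Against the libraries labelled WT-Veh, those labelled ob/ob-Rosi gave 0 of 11037 calls by edgeR (0%), with 262 genes at an unadjusted p under 0.05 and 1 call by DESeq2. Tppp3, a microtubule-binding protein, came nearest among higher genes, at 81.1 and 99.8 CPM in the WT-Veh-labelled libraries, 261 and 173 CPM in the ob/ob-Veh-labelled and 254 and 248 CPM in the ob/ob-Rosi-labelled ones (log2 fold change 1.47 ± 0.31 (SE), edgeR adjusted p = 1.00). The immunoglobulin light chain gene Igkc, a plasma cell product, was nearest among lower genes, at 86.6 and 51.5 CPM in the WT-Veh-labelled libraries, 111 and 161 CPM in the ob/ob-Veh-labelled and 20.5 and 8.23 CPM in the ob/ob-Rosi-labelled ones (log2 fold change -2.35 ± 0.45 (SE), edgeR adjusted p = 1.00).

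In iWAT the same comparison gave fewer calls. Between the libraries labelled ob/ob-Veh and WT-Veh 72 of 8435 genes were called (0.854%), 47 higher (0.557%) and 25 lower (0.296%) by edgeR against 89 higher and 129 lower by DESeq2, and 45.1% of all genes had groups that did not overlap. The cells behind the groups were few, 42 and 254 for WT-Veh and 67 and 90 for ob/ob-Veh, and the calls leaned on single libraries: without either library labelled ob/ob-Veh 4 or 3 genes were called, without the shallow first library labelled WT-Veh 431 were, and without the first or second labelled ob/ob-Rosi, which belong to neither group, 268 and 283 were.

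The lower genes included those of lipid uptake and storage. Fabp4, the fatty acid binding protein of fat cells, was at 9923 and 10779.6 CPM in the WT-Veh-labelled libraries, 166 and 404 CPM in the ob/ob-Veh-labelled and 2659 and 3379.6 CPM in the ob/ob-Rosi-labelled ones. The ob/ob-Veh libraries were lowest by a wide margin and the WT-Veh libraries highest (log2 fold change -5.18 ± 0.49 (SE), edgeR adjusted p = 9.85e-04). Fabp5, a relative of Fabp4, was at 213 and 251 CPM in the WT-Veh-labelled libraries, 8.29 and 3.39 CPM in the ob/ob-Veh-labelled and 131 and 115 CPM in the ob/ob-Rosi-labelled ones (log2 fold change -5.22 ± 0.51 (SE), edgeR adjusted p = 9.85e-04). Cd36 was at 892 and 423 CPM in the WT-Veh-labelled libraries, 80.1 and 84.8 CPM in the ob/ob-Veh-labelled and 187 and 83.5 CPM in the ob/ob-Rosi-labelled ones (log2 fold change -2.95 ± 0.50 (SE), edgeR adjusted p = 0.0223). Together with the lipid-droplet coat genes Plin2 and Plin4 these were the 5 called of 25 adipogenic genes and Pparg targets, all 5 lower, with a list median of -0.98. Pparg itself was at 27.2 and 26.4 CPM in the WT-Veh-labelled libraries, 0 and 10.2 CPM in the ob/ob-Veh-labelled and 27.0 and 34.9 CPM in the ob/ob-Rosi-labelled ones and was not called (log2 fold change -2.48 ± 0.81 (SE), edgeR adjusted p = 0.148).

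Genes best known from capillaries moved the same way. Gpihbp1, which holds lipoprotein lipase on capillary endothelium, was at 54.3 and 52.8 CPM in the WT-Veh-labelled libraries, 0 and 0 CPM in the ob/ob-Veh-labelled and 77.4 and 43.9 CPM in the ob/ob-Rosi-labelled ones and was at least 11.6-fold lower. Car4, a carbonic anhydrase of capillaries, was at 31.7 and 40.0 CPM in the WT-Veh-labelled libraries, 0 and 0 CPM in the ob/ob-Veh-labelled and 8.10 and 10.1 CPM in the ob/ob-Rosi-labelled ones and was at least 8.49-fold lower. The 6 endothelial markers summed to 158 and 84.0 CPM in the Fmo2 cells of the libraries labelled WT-Veh, 5.52 and 13.6 CPM in the ob/ob-Veh-labelled and 146 and 80.9 CPM in the ob/ob-Rosi-labelled ones, with 5 of the 6 at 0 in the first library labelled ob/ob-Veh. The 4 endothelial genes tested had a median log2 fold change of -4.21, or -2.22 with the genes at 0 set to their bound. Fabp4, Cd36 and Cd300lg are genes of capillary endothelium as well, and the part of endothelial RNA in their differences was not tested.

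Of 10 measured Wnt ligands and modulators 2 were called higher and 0 lower, and of 13 BMP, GDF and TGF-beta ligands and antagonists likewise 2 and 0. Sfrp2, a secreted Wnt modulator, was at 217 and 194 CPM in the WT-Veh-labelled libraries, 1809 and 1604 CPM in the ob/ob-Veh-labelled and 139.6 and 60.1 CPM in the ob/ob-Rosi-labelled ones. Both libraries labelled ob/ob-Veh stood several times above all others (log2 fold change 3.08 ± 0.44 (SE), edgeR adjusted p = 0.0103). Its relative Sfrp4 was at 63.4 and 35.2 CPM in the WT-Veh-labelled libraries, 359 and 532 CPM in the ob/ob-Veh-labelled and 94.5 and 50.0 CPM in the ob/ob-Rosi-labelled ones (log2 fold change 3.33 ± 0.46 (SE), edgeR adjusted p = 0.00946). Cd109, a surface co-receptor that dampens TGF-beta, was at 9.05 and 9.60 CPM in the WT-Veh-labelled libraries, 127 and 139 CPM in the ob/ob-Veh-labelled and 11.7 and 11.2 CPM in the ob/ob-Rosi-labelled ones (log2 fold change 3.80 ± 0.42 (SE), edgeR adjusted p = 0.00244), 1 of 2 genes of the 16 named in this comparison that stayed called without each library in turn, Fabp4 being the other. Of the 8 genes of the F3 and Clec11a type 3 were called, all higher. They were Gdf10 at 498 and 567 CPM in the WT-Veh-labelled libraries, 2196 and 2174 CPM in the ob/ob-Veh-labelled and 394 and 385 CPM in the ob/ob-Rosi-labelled ones (log2 fold change 2.05 ± 0.33 (SE), edgeR adjusted p = 0.0165), Vit, a matrix protein, at 72.4 and 89.6 CPM in the WT-Veh-labelled libraries, 434 and 431 CPM in the ob/ob-Veh-labelled and 78.3 and 41.7 CPM in the ob/ob-Rosi-labelled ones (log2 fold change 2.40 ± 0.39 (SE), edgeR adjusted p = 0.0184), and Clec11a (log2 fold change 2.89 ± 0.50 (SE), edgeR adjusted p = 0.0230). F3 itself, at 507 and 276 CPM in the WT-Veh-labelled libraries, 160.2 and 634 CPM in the ob/ob-Veh-labelled and 117 and 69.1 CPM in the ob/ob-Rosi-labelled ones, overlapped and was not called. Tdo2, the tryptophan-degrading enzyme, was at 0 and 0 CPM in the WT-Veh-labelled libraries, 122 and 119 CPM in the ob/ob-Veh-labelled and 4.50 and 0 CPM in the ob/ob-Rosi-labelled ones and was at least 58.9-fold higher. Slc6a2, the noradrenaline transporter, was at 0 and 0 CPM in the WT-Veh-labelled libraries, 66.3 and 40.7 CPM in the ob/ob-Veh-labelled and 0 and 0.360 CPM in the ob/ob-Rosi-labelled ones and was at least 26.9-fold higher. Ptgs2, at 4.53 and 4.00 CPM in the WT-Veh-labelled libraries, 80.1 and 57.6 CPM in the ob/ob-Veh-labelled and 21.6 and 9.71 CPM in the ob/ob-Rosi-labelled ones, was called in the same direction as in eWAT (log2 fold change 4.06 ± 0.64 (SE), edgeR adjusted p = 0.0163).

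The marker genes that fell in eWAT did not pass in iWAT. Mgp was at 869 and 1923 CPM in the WT-Veh-labelled libraries, 483 and 610.4 CPM in the ob/ob-Veh-labelled and 1926 and 1549.9 CPM in the ob/ob-Rosi-labelled ones, lowest in both libraries labelled ob/ob-Veh (log2 fold change -1.35 ± 0.41 (SE), edgeR adjusted p = 0.133), and 0 of the 4 markers were called. The difference of this effect from that in eWAT was not tested. Igfbp5, a carrier of insulin-like growth factors, was at 54.3 and 126 CPM in the WT-Veh-labelled libraries, 1502 and 980.0 CPM in the ob/ob-Veh-labelled and 565 and 220.2 CPM in the ob/ob-Rosi-labelled ones (log2 fold change 3.70 ± 0.56 (SE), edgeR adjusted p = 0.0134). Fibronectin (Fn1) was at 901 and 684 CPM in the WT-Veh-labelled libraries, 3784 and 4164 CPM in the ob/ob-Veh-labelled and 1176 and 700.5 CPM in the ob/ob-Rosi-labelled ones (log2 fold change 2.36 ± 0.39 (SE), edgeR adjusted p = 0.0180), and Postn, another gene of the TGF-beta list, was lower, at 1177 and 575 CPM in the WT-Veh-labelled libraries, 105 and 94.95 CPM in the ob/ob-Veh-labelled and 479.9 and 387 CPM in the ob/ob-Rosi-labelled ones (log2 fold change -3.08 ± 0.43 (SE), edgeR adjusted p = 0.00946). Of 80 ribosomal protein genes 1 was called, and it was lower, while 74 had lower values without overlap, beside 45.1% of all genes without overlap in either direction, and the list median log2 fold change was -0.99. Their summed level in Fmo2 cells was 96585 and 136649 CPM under WT-Veh, 59297 and 64459 CPM under ob/ob-Veh and 119144 and 135536 CPM under ob/ob-Rosi. The median ribosomal share of the UMIs in other Pdgfra cells without a UMI of Fmo2 or Myoc was likewise 18.4% and 12.9% under WT-Veh, 3.88% and 5.00% under ob/ob-Veh and 7.79% and 13.6% under ob/ob-Rosi. Their median mitochondrial share moved the other way, at 4.46% and 3.87%, then 11.0% and 8.66%, then 8.01% and 2.19%, and in the Fmo2 cells themselves it was 4.09% and 2.81%, then 4.19% and 6.96%, then 4.93% and 2.02%, higher in both libraries labelled ob/ob-Veh than in those labelled WT-Veh, with ob/ob-Rosi overlapping both. The part of RNA quality in the ribosomal values was not tested. The macrophage list, at 622 to 1028 CPM in all 6 libraries, had 0 of 9 genes called.

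**Figure D4:**
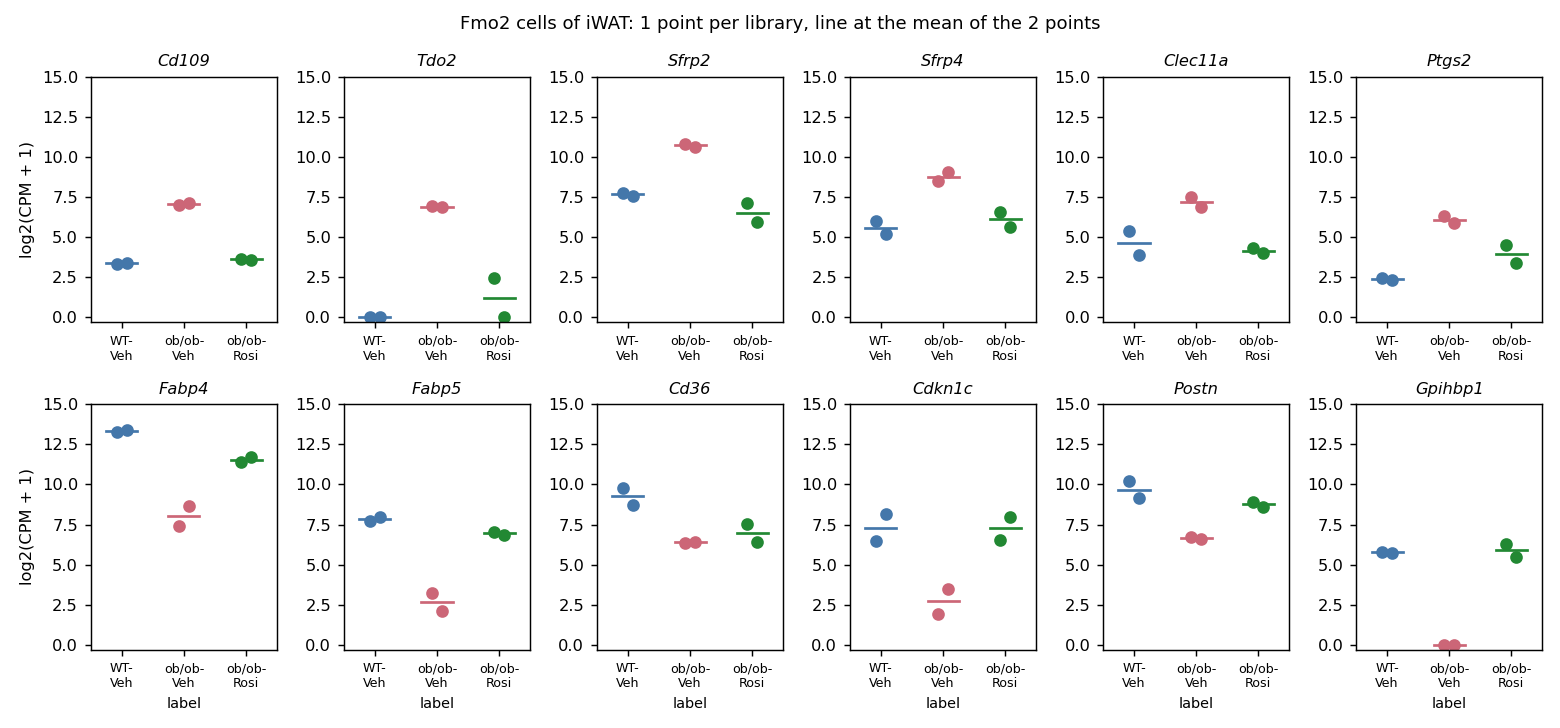
Level of 12 genes in the Fmo2 cells of iWAT as log2(CPM + 1) by labelled group, with 1 point for each library and a line at the mean of the 2 points. Cd109, Tdo2, Sfrp2, Sfrp4, Clec11a and Ptgs2 are highest and Fabp4, Fabp5, Cdkn1c, Postn and Gpihbp1 lowest in both libraries labelled ob/ob-Veh, and Cd36 is as low in the second library labelled ob/ob-Rosi.

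Between the iWAT libraries labelled ob/ob-Rosi and ob/ob-Veh 200 of 8435 genes were called (2.37%), 87 higher (1.03%) and 113 lower (1.34%) by edgeR against 163 higher and 122 lower by DESeq2, with 53.9% of all genes in groups that did not overlap. Of the 87 genes called higher 42 had a higher mean in Ptprc cells, and of the 113 called lower 14, and the part of RNA from those cells was not tested. The ob/ob-Veh libraries again serve both comparisons, and of the genes called in both, 40 were higher and then lower, 18 lower and then higher and 0 had the same direction. Without the first or second library labelled ob/ob-Veh 5 and 9 genes were called, without the first or second labelled ob/ob-Rosi 415 and 83, and without the first or second labelled WT-Veh 638 and 720. Fabp4 (log2 fold change 3.40 ± 0.46 (SE), edgeR adjusted p = 0.00481) and Fabp5 (log2 fold change 4.29 ± 0.52 (SE), edgeR adjusted p = 0.00481) were higher in the libraries labelled ob/ob-Rosi, 2 of the 3 genes called among 25 adipogenic genes and Pparg targets, and Plin2 was the third. Ndufa4l2, a mitochondrial protein of the hypoxia response, was at 13.6 and 80.8 CPM in the WT-Veh-labelled libraries, 2.76 and 3.39 CPM in the ob/ob-Veh-labelled and 119.8 and 288 CPM in the ob/ob-Rosi-labelled ones, which was 934 against 2 UMIs, a ratio of 78.9 with a 95% counting interval of 21.8 to 652. Cdkn1c, an inhibitor of the cell cycle, was at 86.0 and 286 CPM in the WT-Veh-labelled libraries, 2.76 and 10.2 CPM in the ob/ob-Veh-labelled and 93.6 and 253 CPM in the ob/ob-Rosi-labelled ones (log2 fold change 4.77 ± 0.85 (SE), edgeR adjusted p = 0.0155). Gpihbp1, with the values above, was at least 11.7-fold higher.

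Of 10 measured Wnt ligands and modulators 5 were called lower and 0 higher in that comparison, with a list median log2 fold change of -1.82. The 5 were Sfrp2 (log2 fold change -4.12 ± 0.46 (SE), edgeR adjusted p = 0.00370), Sfrp4 (log2 fold change -2.65 ± 0.42 (SE), edgeR adjusted p = 0.00837), Wnt2, Wnt5a and Kremen1. Rspo2, a Wnt agonist, was at 0 and 0 CPM in the WT-Veh-labelled libraries, 22.1 and 23.7 CPM in the ob/ob-Veh-labelled and 0 and 0 CPM in the ob/ob-Rosi-labelled ones and was at least 29.6-fold lower, on 15 against 0 UMIs. It was called in all 8 alternative fits that tested it, and Slc6a2 in all 13, and the other fits did not test them. In this comparison 0 of the 16 genes with the largest changes were called in every fit that left out 1 library. Of the 8 genes of the F3 and Clec11a type 4 were lower and 0 higher, Clec11a (log2 fold change -3.18 ± 0.44 (SE), edgeR adjusted p = 0.00502), Gdf10 (log2 fold change -2.50 ± 0.33 (SE), edgeR adjusted p = 0.00481), Vit (log2 fold change -2.88 ± 0.39 (SE), edgeR adjusted p = 0.00481) and Meox2. Of 12 complement genes 3 were lower, among them C7, at 118 and 24.8 CPM in the WT-Veh-labelled libraries, 641 and 627 CPM in the ob/ob-Veh-labelled and 99.9 and 20.5 CPM in the ob/ob-Rosi-labelled ones (log2 fold change -3.45 ± 0.71 (SE), edgeR adjusted p = 0.0306). Of 80 ribosomal protein genes 6 were called, all higher, and 78 had higher values without overlap, with a median log2 fold change of 1.101. Over all genes, 1.03% were called higher and 53.9% had no overlap in either direction. The same ob/ob-Veh libraries, with the low ribosomal levels given above, enter here, and the part of RNA quality was again not tested. Against the libraries labelled WT-Veh 0 of 8435 genes were called by edgeR (0%), with 218 at an unadjusted p under 0.05 and 3 calls by DESeq2. Leaving out the first or second library labelled WT-Veh gave 3 and 27 calls, and the first or second labelled ob/ob-Rosi 9 and 5. Wisp2, a matricellular Wnt target, was at 90.5 and 189 CPM in the WT-Veh-labelled libraries, 77.3 and 84.8 CPM in the ob/ob-Veh-labelled and 24.3 and 34.5 CPM in the ob/ob-Rosi-labelled ones (log2 fold change -2.31 ± 0.38 (SE), edgeR adjusted p = 0.475), and Col6a6, a collagen VI chain, was at 18.1 and 12.0 CPM in the WT-Veh-labelled libraries, 41.4 and 20.3 CPM in the ob/ob-Veh-labelled and 55.8 and 74.1 CPM in the ob/ob-Rosi-labelled ones (log2 fold change 2.27 ± 0.45 (SE), edgeR adjusted p = 0.709).

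Whether the Fmo2 cells responded differently from the other Pdgfra cells of the same libraries was tested directly, as the difference of both effects with the library as a block. In eWAT 64 of 12098 genes differed for ob/ob-Veh against WT-Veh (0.529%), 23 with a higher (0.19%) and 41 with a lower value in Fmo2 cells (0.339%), and 50 for ob/ob-Rosi against ob/ob-Veh (0.413%), 34 higher (0.281%) and 16 lower (0.132%). In the Fmo2 cells alone, 29.9% and 30.7% of all genes had groups that did not overlap in the direction of the difference. The first count was 38 and 30 without the first or second library labelled WT-Veh, 30 without the second labelled ob/ob-Veh, 13 higher and 13 lower by DESeq2, and 124 and 120 without the first or second labelled ob/ob-Rosi. The second was 31 without the second library labelled ob/ob-Veh. Of the 8 genes with the largest differences in the first, 4 stayed called without each library in turn: Slpi, Mmp3, Fabp4 and Slco2a1. Fabp4 was among the genes that differed. In Fmo2 cells it was at 1396 and 2299 CPM in the WT-Veh-labelled libraries, 845 and 1271 CPM in the ob/ob-Veh-labelled and 658 and 1402 CPM in the ob/ob-Rosi-labelled ones. In the other Pdgfra cells it was at 2509 and 5541 CPM in the WT-Veh-labelled libraries, 691 and 1073 CPM in the ob/ob-Veh-labelled and 1102 and 1727 CPM in the ob/ob-Rosi-labelled ones. The others were lower under ob/ob-Veh by the larger factor, so that the difference of effects was positive (log2 fold change 1.41 ± 0.13 (SE), edgeR adjusted p = 9.54e-08). Sult1e1 was at 25.1 and 2.99 CPM in the WT-Veh-labelled libraries, 1643 and 1226 CPM in the ob/ob-Veh-labelled and 42.5 and 11.0 CPM in the ob/ob-Rosi-labelled ones in the other Pdgfra cells, and its rise in Fmo2 cells was the smaller (log2 fold change -1.47 ± 0.26 (SE), edgeR adjusted p = 0.00302). Slpi, a secreted protease inhibitor, differed by log2 fold change 2.82 ± 0.42 (SE), edgeR adjusted p = 3.57e-04, but its values in Fmo2 cells, 117 and 6.39 CPM in the WT-Veh-labelled libraries, 138 and 81.1 CPM in the ob/ob-Veh-labelled and 47.9 and 117 CPM in the ob/ob-Rosi-labelled ones, spread widely within WT-Veh. For Cpxm2 the classes went opposite ways. Fmo2 cells were at 59.5 and 49.9 CPM in the WT-Veh-labelled libraries, 26.7 and 11.3 CPM in the ob/ob-Veh-labelled and 63.9 and 34.7 CPM in the ob/ob-Rosi-labelled ones, and the other Pdgfra cells at 10.1 and 3.36 CPM in the WT-Veh-labelled libraries, 14.5 and 30.4 CPM in the ob/ob-Veh-labelled and 8.45 and 3.07 CPM in the ob/ob-Rosi-labelled ones (log2 fold change -3.17 ± 0.48 (SE), edgeR adjusted p = 3.57e-04, adjusted p = 0.0722 without the second library labelled WT-Veh). Mmp3, a matrix protease, was at 151 and 139 CPM in the WT-Veh-labelled libraries, 26.1 and 11.5 CPM in the ob/ob-Veh-labelled and 228 and 239 CPM in the ob/ob-Rosi-labelled ones in Fmo2 cells and at 132 and 162 CPM in the WT-Veh-labelled libraries, 10.1 and 1.54 CPM in the ob/ob-Veh-labelled and 200.0 and 272 CPM in the ob/ob-Rosi-labelled ones in the others (log2 fold change 1.82 ± 0.28 (SE), edgeR adjusted p = 3.57e-04). Among the lower values were the haemoglobin gene Hba-a1 (log2 fold change -5.88 ± 0.99 (SE), edgeR adjusted p = 0.00151, or -2.33 with adjusted p = 0.823 without the second library labelled WT-Veh) and the macrophage gene C1qc, genes of red blood cells and macrophages. The part of RNA from those cells was not tested.

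In iWAT 47 of 10371 genes differed for ob/ob-Veh against WT-Veh (0.453%), 6 higher (0.0579%) and 41 lower (0.395%) in Fmo2 cells, and 47 for ob/ob-Rosi against ob/ob-Veh (0.453%), 18 higher (0.174%) and 29 lower (0.28%), with 32.1% and 38.2% of all genes not overlapping in that direction between groups of Fmo2 cells. Without the first or second library labelled WT-Veh the counts were 87 and 86, and 143 and 145, without the second labelled ob/ob-Veh the first was 72, and without the first or second labelled ob/ob-Rosi the second was 18 and 24. The balance of the second turned to 49 higher and 32 lower with at least 3 UMIs of Fmo2 and Myoc, and to 85 and 58 without the first library labelled WT-Veh. Sfrp2 fell more in Fmo2 cells than in others in the second comparison: it was at 57.1 and 57.1 CPM in the WT-Veh-labelled libraries, 279 and 147 CPM in the ob/ob-Veh-labelled and 64.7 and 59.5 CPM in the ob/ob-Rosi-labelled ones in the other Pdgfra cells, far below the values of the Fmo2 cells given above for ob/ob-Veh (log2 fold change -2.56 ± 0.28 (SE), edgeR adjusted p = 1.87e-05). Clec11a did likewise, at 2.38 and 2.38 CPM in the WT-Veh-labelled libraries, 22.4 and 8.53 CPM in the ob/ob-Veh-labelled and 9.34 and 7.87 CPM in the ob/ob-Rosi-labelled ones in the other Pdgfra cells (log2 fold change -2.41 ± 0.41 (SE), edgeR adjusted p = 0.00452). Timp1 was at 118 and 46.4 CPM in the WT-Veh-labelled libraries, 425 and 67.8 CPM in the ob/ob-Veh-labelled and 78.3 and 89.6 CPM in the ob/ob-Rosi-labelled ones in Fmo2 cells, highest in the first library labelled ob/ob-Veh. In the others it was at 64.2 and 58.5 CPM in the WT-Veh-labelled libraries, 37.1 and 28.6 CPM in the ob/ob-Veh-labelled and 144 and 116 CPM in the ob/ob-Rosi-labelled ones, highest in the libraries labelled ob/ob-Rosi, and the effects differed (log2 fold change -3.30 ± 0.38 (SE), edgeR adjusted p = 2.10e-05). Pla1a, a phospholipase, was at 77.0 and 153 CPM in the WT-Veh-labelled libraries, 19.3 and 27.1 CPM in the ob/ob-Veh-labelled and 206 and 279 CPM in the ob/ob-Rosi-labelled ones in Fmo2 cells. In the others it was at 112 and 155 CPM in the WT-Veh-labelled libraries, 159 and 155 CPM in the ob/ob-Veh-labelled and 311 and 307 CPM in the ob/ob-Rosi-labelled ones, with no dip under ob/ob-Veh (log2 fold change -2.62 ± 0.40 (SE), edgeR adjusted p = 0.00252). Of the 24 dissociation genes 7 had a lower effect in Fmo2 cells for ob/ob-Veh against WT-Veh and 0 a higher one, among them Jun, Fosb and Zfp36.

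Between the depots, Shox2, Tbx15 and Hoxc10, which encode developmental transcription factors, were higher in the Fmo2 cells of iWAT. With iWAT set against eWAT in 1 fit of all 12 libraries, 96 of 10355 genes were called within WT-Veh (0.927%), 298 within ob/ob-Veh (2.88%) and 135 within ob/ob-Rosi (1.3%). Those higher in iWAT were 0.425%, 1.56% and 0.464% of all genes and those lower 0.502%, 1.31% and 0.84%, while 35.9%, 53.2% and 36.1% of all genes had depots that did not overlap. Under each label, some fit that left out 1 library turned which direction had more calls. Within ob/ob-Veh the 162 higher and 136 lower genes became 149 and 183 by library size alone, so neither direction led there under both scalings. Fits blocked on the replicate number called 269, 600 and 364. Within WT-Veh 54 and 55 were called without the first or second eWAT library and 29 without the second iWAT library. Within ob/ob-Veh the counts were 111 and 109 without each eWAT library and 84 and 92 without each iWAT library, and within ob/ob-Rosi 59 and 39 without the second library of eWAT or iWAT. Shox2, a homeobox factor of limb and heart development, was at 0 in the Fmo2 cells of all 6 eWAT libraries. Its iWAT values were 36.2 and 97.6 CPM under WT-Veh, 58.0 and 50.9 CPM under ob/ob-Veh and 38.7 and 52.5 CPM under ob/ob-Rosi, which was at least 90.2-fold higher, at least 126-fold higher and at least 49.6-fold higher in that order. Tbx15, a T-box factor of subcutaneous fat, had 1 UMI over all eWAT libraries and was at 36.2 and 36.8 CPM under WT-Veh, 96.7 and 61.0 CPM under ob/ob-Veh and 57.6 and 42.8 CPM under ob/ob-Rosi in iWAT. The homeobox gene Hoxc10 was at 1.80 and 2.00 CPM under WT-Veh, 1.74 and 3.46 CPM under ob/ob-Veh and 3.42 and 0 CPM under ob/ob-Rosi in eWAT. In iWAT it was at 13.6 and 68.8 CPM under WT-Veh, 85.6 and 54.3 CPM under ob/ob-Veh and 37.8 and 52.9 CPM under ob/ob-Rosi, with no overlap in any group. Shox2, Tbx15 and Chrdl1 stayed called within WT-Veh without each library in turn.

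Of 18 measured BMP, GDF and TGF-beta ligands and antagonists 2 were called higher and 1 lower in iWAT within WT-Veh, and of 11 genes of the IGF axis 1 and 0. Chrdl1, the BMP antagonist seen above, was at 7.21 and 9.18 CPM under WT-Veh, 17.4 and 7.80 CPM under ob/ob-Veh and 7.99 and 0.914 CPM under ob/ob-Rosi in eWAT. In iWAT it was at 308 and 134 CPM under WT-Veh, 771 and 699 CPM under ob/ob-Veh and 94.5 and 54.3 CPM under ob/ob-Rosi, above eWAT in every library (log2 fold change 4.62 ± 0.64 (SE), edgeR adjusted p = 0.00199 within WT-Veh, and log2 fold change 5.92 ± 0.59 (SE), edgeR adjusted p = 5.75e-05 within ob/ob-Veh). Meox2, a homeobox factor, was higher in iWAT under all 3 labels, with log2 fold change 4.29 ± 0.34 (SE), edgeR adjusted p = 7.24e-06 within ob/ob-Veh. Igfbp3, an IGF carrier, was at 46.9 and 48.7 CPM under WT-Veh, 70.5 and 106 CPM under ob/ob-Veh and 54.8 and 14.2 CPM under ob/ob-Rosi in eWAT. It was at 688 and 2073 CPM under WT-Veh, 88.4 and 536 CPM under ob/ob-Veh and 847 and 495 CPM under ob/ob-Rosi in iWAT, called within WT-Veh (log2 fold change 4.90 ± 0.78 (SE), edgeR adjusted p = 0.00711) and within ob/ob-Rosi but not within ob/ob-Veh (log2 fold change 1.89 ± 0.69 (SE), edgeR adjusted p = 0.174).

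Another set of genes was higher in eWAT. Wt1, the Wilms tumour factor of visceral fat, was at 52.3 and 49.1 CPM under WT-Veh, 168 and 153 CPM under ob/ob-Veh and 53.6 and 27.9 CPM under ob/ob-Rosi in eWAT. Its level in iWAT was 0 and 0 CPM under WT-Veh, 0 and 0 CPM under ob/ob-Veh and 12.6 and 0 CPM under ob/ob-Rosi, and it was called within ob/ob-Veh, at least 35.2-fold lower in iWAT. Tcf21, a factor of visceral fibroblasts, was at least 36.5-fold lower in iWAT within ob/ob-Veh, at 39.7 and 35.5 CPM under WT-Veh, 174 and 159 CPM under ob/ob-Veh and 39.9 and 20.1 CPM under ob/ob-Rosi in eWAT. Haptoglobin (Hp) was at least 69.5-fold lower in iWAT there, and Inhbb, an activin subunit, was lower under all 3 labels (log2 fold change -4.28 ± 0.43 (SE), edgeR adjusted p = 5.52e-04 within WT-Veh). Col6a5, a collagen VI chain, was at 637 and 429 CPM under WT-Veh, 941 and 1037 CPM under ob/ob-Veh and 742 and 194 CPM under ob/ob-Rosi in eWAT. It was at 4.53 and 0 CPM under WT-Veh, 5.52 and 10.2 CPM under ob/ob-Veh and 51.3 and 1.44 CPM under ob/ob-Rosi in iWAT, and the groups did not overlap. Krt8, which marks mesothelium together with Wt1, was at 0 in several libraries of Fmo2 cells. The mesothelial list, which includes Wt1 itself, summed to 52.3 to 237 CPM in eWAT and 0 to 15.3 CPM in iWAT. The part of mesothelial RNA in the Wt1 values was not tested.

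Mgp was lower in iWAT within WT-Veh (log2 fold change -2.98 ± 0.38 (SE), edgeR adjusted p = 0.00145) and within ob/ob-Rosi (log2 fold change -2.89 ± 0.38 (SE), edgeR adjusted p = 0.00129) but not called within ob/ob-Veh (log2 fold change -0.58 ± 0.36 (SE), edgeR adjusted p = 0.467), where eWAT itself was low. Col1a1, the main fibrillar collagen, was at 3798 and 5097 CPM under WT-Veh, 1943 and 2013 CPM under ob/ob-Veh and 3017 and 3857 CPM under ob/ob-Rosi in eWAT. The iWAT values were 5573 and 4004 CPM under WT-Veh, 17404 and 10638 CPM under ob/ob-Veh and 5967 and 3771 CPM under ob/ob-Rosi, called within ob/ob-Veh (log2 fold change 2.92 ± 0.36 (SE), edgeR adjusted p = 3.01e-04) and not within WT-Veh (log2 fold change 0.13 ± 0.33 (SE), edgeR adjusted p = 0.987). Sfrp2 (log2 fold change 5.52 ± 0.55 (SE), edgeR adjusted p = 5.75e-05) and Sfrp4 (log2 fold change 5.07 ± 0.44 (SE), edgeR adjusted p = 1.45e-05) were called only within ob/ob-Veh, as were 16 ribosomal protein genes, all lower in iWAT. Of all genes tested, 1.31% were called lower in iWAT within ob/ob-Veh. The median ribosomal share of UMIs in Fmo2 cells labelled ob/ob-Veh was 4.05% and 5.14% in iWAT and 11.5% and 11.2% in eWAT. The part of RNA quality in these ribosomal values was not tested. Whether the depot difference itself changed between labels was not tested.

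**Figure D5:**
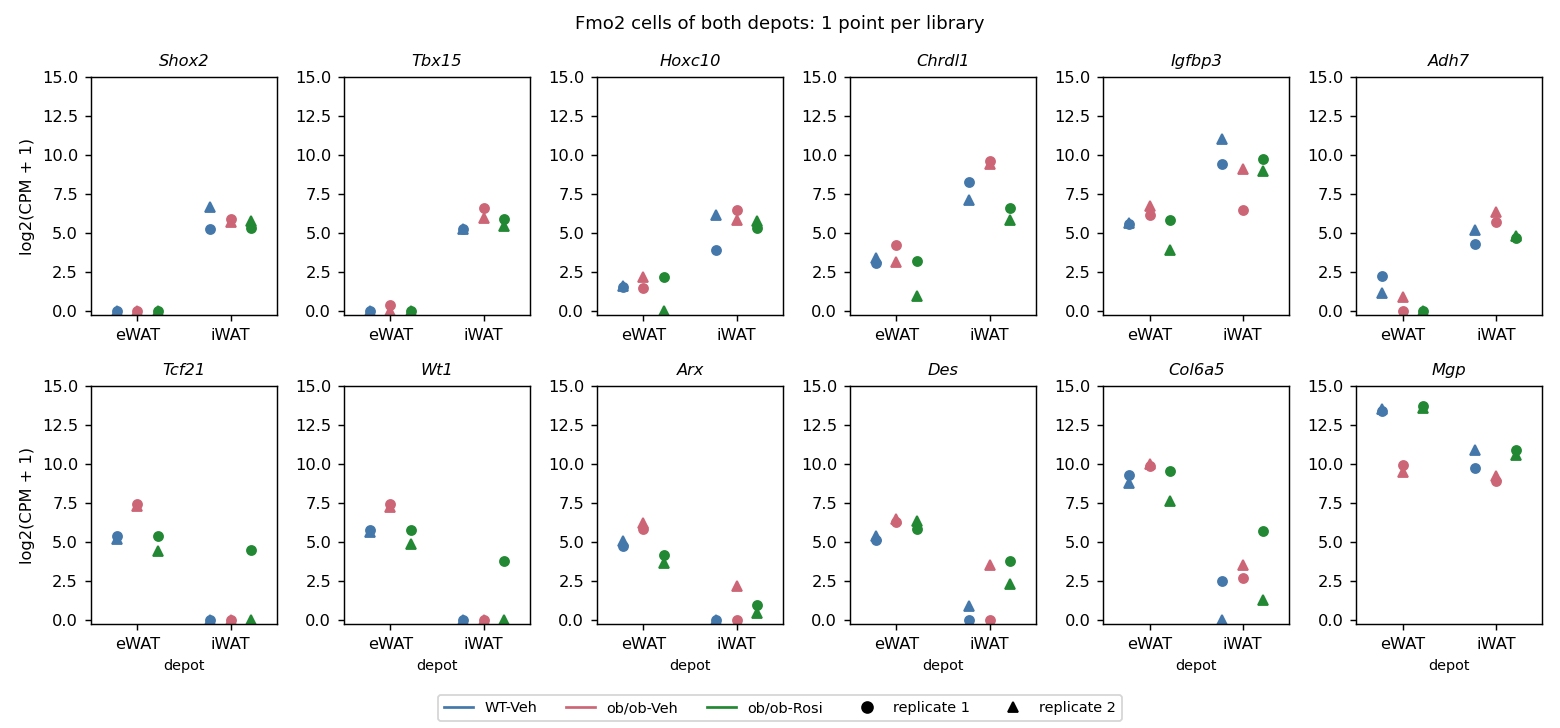
Level of 12 genes in the Fmo2 cells of eWAT and iWAT as log2(CPM + 1) by depot and labelled group, with 1 point for each library. Shox2 and Tbx15 lie at or next to 0 in every eWAT library, Chrdl1 is higher in every iWAT library, and Wt1 and Col6a5 are higher in eWAT.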

How the data were processed

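Counts of UMIs per gene and barcode, as deposited by the authors, were used for 12 libraries. Per the labels and methods the authors sequenced droplet 3-prime libraries and counted them with Cell Ranger 3.0.2 on mm10, after bcl2fastq 2.19.1.403 (submitters' processing notes). The deposited iWAT counts held no barcode over 22000 UMIs or 25% mitochondrial UMIs, and the eWAT counts did. No removal of doublets or free RNA was stated. Barcodes with 700 to 22000 UMIs, 200 to 6000 genes and under 25% mt- UMIs were kept. Doublets were called with Scrublet in scanpy 1.11.5 and kept, being left out only in an alternative.

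The members, the 28 gene lists and the tests were chosen with earlier results of these data known. Samples were grouped by the GEO labels. Each library counts as 1 replicate, so UMIs were summed per library and class of cells where at least 20 cells existed. Sums were tested with edgeR 4.0.16 (R 4.3.3; TMM, filterByExpr, quasi-likelihood test) with Benjamini-Hochberg adjustment, and the 7 genes of the rule were left out. A call needed an adjusted p of at most 0.05 and 1.1-fold. Group fits had 3 and the depot fit 6 residual degrees of freedom. The labels call the 2 libraries of a group biological replicates, and the study treats them as individual mice. Whether a replicate number marks 1 mouse in both depots is not given in the sources used here. Contrasts between classes of cells are described without a test because the rule made the classes. Gene positions are from GENCODE for the same build, in which 31011 of 31053 genes were found. Ratios against 1 to 3 counts carry exact 95% counting intervals.

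Named genes were the marker and check genes, the called genes with the largest change in each direction (8 for groups and depots, 10 for classes, 4 for differences of effect) with at least 20 CPM in the higher group and no overlap, and up to 4 called genes of each list. Where none were called, the 4 with the smallest p in each direction were taken. Not all are printed. C7, Fn1, Igfbp5 and other list genes are named under the list part of the rule, and Sult1e1, C1qc and Vit in differences of effect, Inhbb, Igfbp3, Meox2, Sfrp2, Sfrp4 and Col1a1 between depots were chosen after their values were seen. Alternatives tried were no filter, library size alone or DESeq2 1.42.0 for TMM, thinned cells, a replicate block, other minimum cell numbers, no doublets, Fmo2+Myoc of at least 3, and each library left out. Fits were tested on simulated data.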

Additional observations from a re-analysis of the deposited data

Results flagged for a closer look

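Spp1, osteopontin, a secreted phosphoprotein that macrophages of obese fat make in large amounts, had values in the Fmo2 cells that lay on opposite sides of WT-Veh in the 2 depots, and was called in eWAT and not in iWAT. In eWAT it was at 115 and 8.78 CPM in the WT-Veh-labelled libraries, 0 and 0.289 CPM in the ob/ob-Veh-labelled and 30.8 and 9.60 CPM in the ob/ob-Rosi-labelled ones. In iWAT it was at 0 and 0 CPM, 35.9 and 17.0 CPM, and 129 and 17.6 CPM in the same order. Every library labelled ob/ob-Veh lay below WT-Veh in eWAT and above it in iWAT, and the difference between the depots was not tested. The fitted log2 fold changes of ob/ob-Veh against WT-Veh were -8.03 in eWAT (edgeR adjusted p = 0.0116) and 7.80 in iWAT (adjusted p = 0.140, not called), and both rest on a group with 1 or 0 UMIs, so they give the direction and no size. In iWAT the difference of this effect from that in the other Pdgfra cells was called for Spp1, higher in Fmo2 cells, though not under every alternative. It rests on the same WT-Veh group at 0 UMIs. As a ratio of counts, eWAT gave 86 against 1 UMIs, 194 with a 95% counting interval of 33.9 to 7757. The 86 UMIs pool libraries at 115 and 8.78 CPM, and the interval does not cover that spread. In the Ptprc cells Spp1 was at 124 and 68.4 CPM, 10.6 and 22.1 CPM, and 158 and 112 CPM in eWAT, and at 24.5 and 8.47 CPM, 9.45 and 7.52 CPM, and 17.9 and 15.7 CPM in iWAT, in the same order. Those of ob/ob-Veh lay below WT-Veh in eWAT and overlapped with it in iWAT, and the level in Ptprc cells was below that in Fmo2 cells in all 4 iWAT libraries labelled ob/ob-Veh or ob/ob-Rosi. The part of macrophage RNA was not tested.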

How the results depend on the processing

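Counts of called genes are given in the order of the report, first the untreated groups, then the effect of rosiglitazone, then treated against WT-Veh. With no filter on low counts they became 1074, 1269 and 12 in eWAT, 433, 680 and 39 in iWAT, 389, 745 and 429 between depots (WT-Veh first, ob/ob-Rosi last) and, for differences of effect between cell classes, 140 and 88 in eWAT and 94 and 105 in iWAT. With cells thinned to 2000 UMIs, 358 and 358 genes were called in the first 2 eWAT comparisons, 58, 149 and 65 between depots and 12 and 28 in the iWAT differences. For these fits the cells were chosen on all their UMIs and then thinned, whereas the thinned shares applied the rule after thinning. The part of depth in the choice of cells was therefore not tested by them. DESeq2 called 1 gene in eWAT and 3 in iWAT for ob/ob-Rosi against WT-Veh, 218 for iWAT ob/ob-Veh against WT-Veh (89 higher and 129 lower, against 47 and 25 by edgeR), 145 between depots within WT-Veh and 26, 18, 30 and 22 in the differences. It also moved the direction in iWAT ob/ob-Rosi against ob/ob-Veh (163 higher and 122 lower, against 87 and 113), and the first eWAT difference became 13 and 13, or 15 and 50 by library size, against 23 and 41. Without called doublets the eWAT difference for ob/ob-Rosi against ob/ob-Veh gave 32, and with at least 3 UMIs of Fmo2 and Myoc 31, with 81 for its iWAT counterpart. The balance of higher and lower calls also turned with no filter, to 189 and 244 and to 397 and 283 in the first 2 iWAT comparisons, to 258 and 487 between depots within ob/ob-Veh and to 57 and 48 in the second iWAT difference (35 and 33 without doublets). Leaving out a library turned it in the same 4 results, between depots within WT-Veh and ob/ob-Rosi, and in the first eWAT difference, and the block turned it in the second iWAT comparison (229 and 214) and between depots within ob/ob-Veh (292 and 308). The causes were not tested. With a replicate block the counts were 1035, 1343 and 1 in eWAT, 161, 443 and 3 in iWAT and 269, 600 and 364 between depots. Deviations of libraries with the same number correlated at 0.343, 0.273 and 0.309 between eWAT groups, 0.0115, 0.0239 and 0.446 between iWAT groups and 0.298, 0.214 and 0.608 between depots. All pairs were over 0.1 in eWAT and between depots, and 2 of the 3 in iWAT were not. No label ties a number to a mouse, litter or day, so the fits without the block stayed the main ones, and the blocked counts stand beside those of the first 2 eWAT comparisons and of the depots.

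Without each library in turn the counts ranged from 161 to 825, 206 to 1431 and 0 to 0 in eWAT, 3 to 431, 5 to 720 and 0 to 27 in iWAT, 29 to 127, 84 to 404 and 39 to 185 between depots, 30 to 124 and 31 to 68 in the eWAT differences and 49 to 87 and 18 to 145 in the iWAT differences. The low end came without the second iWAT library labelled WT-Veh (29), the first iWAT library labelled ob/ob-Veh (84) and the second iWAT library labelled ob/ob-Rosi (39) between depots. Where 1 library was left in a group, it was assumed to vary like the others. Among settings for single named genes 2258 kept their side of the threshold, 207 lost it, 25 gained it and 1 turned: the difference of effect of Cxcl13 in iWAT for ob/ob-Veh against WT-Veh (log2 -3.03) became 0.087 without the second library labelled WT-Veh and -5.38 without the second labelled ob/ob-Veh. The planned comparison of Fmo2 cells with and without Myoc was not run, since no eWAT library and 1 iWAT library held 20 cells with a Myoc UMI, and its version with 10 cells was not run either. The depth of the first iWAT library labelled WT-Veh and cell numbers of 42 to 254 limit the iWAT groups labelled WT-Veh and ob/ob-Veh.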
